A study of Homo sapiens with 8 samples.

Results

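The genes described here are 10 members of the activin, TGF-beta and follistatin group, measured as ribosome footprints in G401 cells, a kidney rhabdoid tumor line that lacks SMARCB1. They were taken by name: the ligands INHBA, TGFB1, TGFB2, TGFB3 and BMP4, the secreted antagonists FSTL3, FST and GREM1, the follistatin-related glycoprotein FSTL1, and the receptor TGFBR2. All 10 were matched by gene identifier among the 20719 genes listed. The cells carried a doxycycline-inducible SMARCB1 or, as a control, a doxycycline-inducible GFP. Each line received 0.1 µg/ml doxycycline (Dox) or DMSO for 12 h, and each of the 4 groups (SMARCB1 Dox, SMARCB1 DMSO, GFP Dox and GFP DMSO) has 2 libraries, each from pooled culture plates. Footprints of translating ribosomes were captured with RiboLace. All 4 groups share the G401 background and an inducible transgene, and whether either line is a single clone is not given in the sources used here.

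Activins, TGF-betas and BMPs are secreted dimers of one protein superfamily. They bind a type II receptor, which activates a type I receptor, and this in turn phosphorylates SMAD proteins that act on genes in the nucleus. Follistatin (FST) and follistatin-like 3 (FSTL3) bind activin outside the cell and block it, and gremlin (GREM1) does the same to BMPs. TGF-betas are secreted in a latent form held by latent TGF-beta binding proteins. SMARCB1 is a core subunit of the SWI/SNF chromatin remodelling complex.

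FSTL3 was among the transcripts for which the study lists quantitative PCR primers. The stretch they amplify is shown because it places that RNA readout on the coding sequence counted here. The study's PCR measured RNA in cell fractions, after a longer induction than the 12 h used here, so it is a different quantity from footprints. The primer sequences are those of the study, and each was searched for in the GENCODE 44 transcripts of FSTL3. Both matched 1 of the 6 coding transcripts, where they span 106 bases, from base 201 to base 306 of a coding sequence of 789 bases, across exons 2 and 3 of 5. On GRCh38 this spans chr19:677889-680290 on the + strand, intron included. The spliced stretch, 5′ to 3′ with the primer sites in capitals, has a GC content of 61.3%.
FSTL3 forward primer: tgacaccgcctggtccaacct
FSTL3 reverse primer: cacgccgtcgcacgaatcttt
FSTL3 amplified stretch: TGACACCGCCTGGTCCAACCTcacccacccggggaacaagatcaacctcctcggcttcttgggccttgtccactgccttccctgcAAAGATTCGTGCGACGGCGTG

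The libraries held 5924443 to 14000039 counts on genes. SMARCB1 itself was read 2553 and 1750 times with SMARCB1 Dox and 0 times in the 6 libraries of the other groups, as the labels state. Reads with several alignments made up 25.6% to 56.4% of the entries in a library, and the highest share was in GFP Dox replicate 1. The tumor marker VIM and the epithelial keratins KRT8 and KRT18 were abundant in every library, but they moved with the line. VIM had 2435 to 3382 CPM (counts scaled to the library total) in the SMARCB1 line and 1211 to 1621 CPM in the GFP line, without overlap. KRT8 had 1226 to 2009 CPM against 2003 to 2869 CPM, and KRT18 745 to 1387 CPM against 1108 to 1929 CPM, both overlapping. Their part in the differences between the lines was not tested. The other epithelial markers were scarce, with 38 counts for EPCAM and 15 for CDH1 over the 8 libraries together. Of the immune markers PTPRC and CD3E had 0 counts in all 8 libraries, and CD68, a lysosomal protein used as a macrophage marker, had 72 to 450 counts a library. The muscle regulators MYOD1 and MYOG had 0 counts in all 8, and the muscle marker DES had 16 over the 8 libraries together. Of the endothelial markers, PECAM1 and CDH5 had 7 counts each and VWF had 53 over the 8 libraries together. RNA-seq was not analysed here, so a change in mRNA amount and a change in ribosomes per mRNA cannot be told apart, nor can a change in the share of cells and a change per cell. The study's methods call the experiments duplicates without saying whether the libraries of a group came from cultures grown separately, so the p-values measure the spread between these samples, which may be technical.

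The group fell into detected and undetected genes, with the activin subunit INHBA and follistatin itself on the undetected side. Levels between genes are given as CPM, footprint counts relative to the library total after edgeR's TMM scaling, per kilobase of coding sequence. The length used is that of the coding bases of all transcripts of a gene merged. For FSTL3 this is 944 bases, against 789 in the transcript that the primers match. On this scale BMP4, a ligand that acts through BMP receptors, had a mean level over the 8 libraries of 214 CPM per kb, at the 95.1th percentile of the 14322 genes with counts. FSTL1 followed at 25.9 CPM per kb (69th percentile) and TGFB1 at 15.8 CPM per kb (59.7th percentile). FSTL3 lay at 2.83 CPM per kb (34.8th percentile) and TGFB3 at 0.879 CPM per kb (26.1th percentile). These 5 genes passed the expression filter and could be tested. The other 5 did not.

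**Figure D1:**
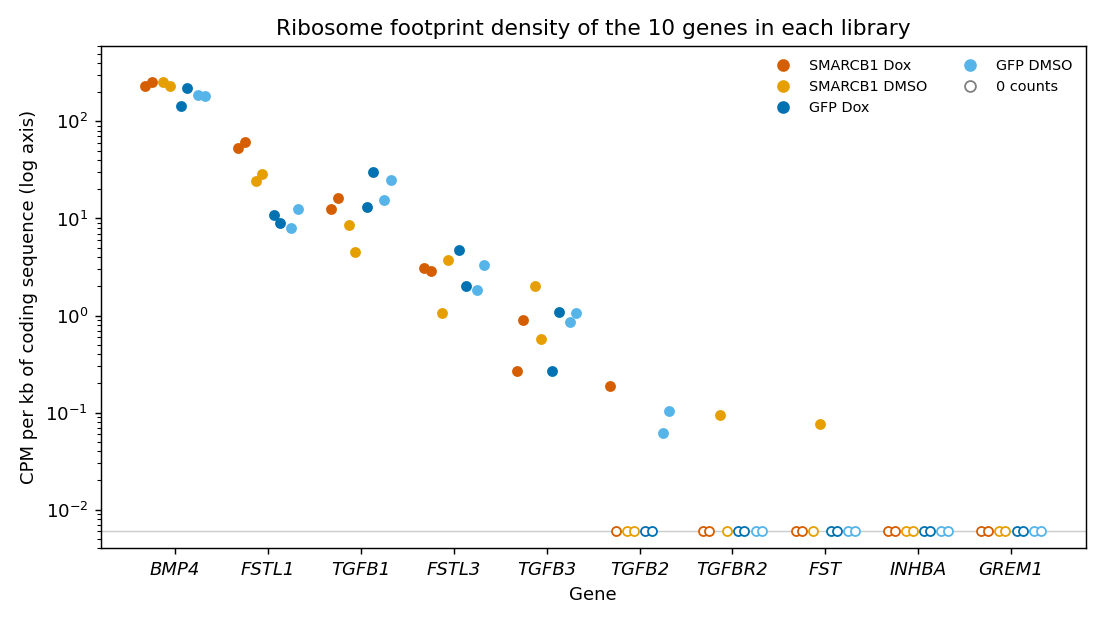
Footprint density of the 10 genes, in CPM per kb of coding sequence on a log axis, with 1 point per library coloured by group. Open points on the grey line mark libraries with 0 counts. The lowest BMP4 point is at 143 CPM per kb, FSTL1 and TGFB1 change places between the lines, and the 5 genes on the right have at most 3 counts in any library.

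INHBA, which encodes the subunit of activin A, and GREM1 had 0 counts in all 8 libraries. A count of 0 allows up to 3 counts as a 1-sided 95% limit, or 0.0392 CPM over the 8 libraries together. The upper end of the exact 95% Poisson interval, the measure used below for 1 count, is 0.0482 CPM. Such limits cover counting error only. FST had 1 count in all, in SMARCB1 DMSO replicate 2. TGFBR2, the type II receptor of the TGF-betas, had 1 count in all, in SMARCB1 DMSO replicate 1. For each of these genes with 1 count, the pooled level was 0.0131 CPM with an exact 95% Poisson interval of 0.000331 to 0.0729 CPM. TGFB2 had 6 counts, of which 3 were in SMARCB1 Dox replicate 1, 1 in GFP DMSO replicate 1 and 2 in GFP DMSO replicate 2. At this depth no difference between groups was detectable for these 5 genes. None of the 10 coding sequences shares bases with the coding sequence of another gene. No stretch of 28 bases of INHBA, GREM1, FST, TGFBR2 or TGFB2 recurs in the transcripts of another gene, a measure of how often counting unique alignments could miss reads. Among the members only TGFB3 has such stretches, 9.18% of its total, all shared with the antisense gene TGFB3-AS1. The search covered transcripts on both strands, whereas reads were aligned to the genome. A stretch shared with an antisense gene need not have a second place in the genome. The 9.18% is therefore not a share of reads missed.

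The order of the detected genes differed between the lines. BMP4 came first in all 4 groups. In both groups of the SMARCB1 line FSTL1 came next, above TGFB1, and in both groups of the GFP line TGFB1 came next, above FSTL1. In SMARCB1 DMSO, FSTL1 had 26.3 ± 2.99 CPM per kb (SD, n = 2) and TGFB1 had 6.57 ± 2.90 CPM per kb (SD, n = 2). In GFP DMSO the same levels were 10.2 ± 3.17 for FSTL1 and 20.3 ± 6.72 CPM per kb for TGFB1 (SD, n = 2). The libraries of FSTL1 and TGFB1 did not overlap within any group. Among the 5 detected genes, only FSTL3 and TGFB3 in SMARCB1 DMSO were neighbours whose libraries overlapped, at 2.39 ± 1.88 and 1.29 ± 1.03 CPM per kb (SD, n = 2).

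FSTL1 encodes a secreted glycoprotein with a follistatin-like domain (GRCh38 chr3:120392293-120451016, − strand). It had 49.8 and 56.1 CPM in the SMARCB1 Dox libraries, 22.3 and 26.3 CPM in SMARCB1 DMSO, 10.1 and 8.28 CPM in GFP Dox, and 7.32 and 11.5 CPM in GFP DMSO. These levels rest on 595, 354, 134, 337, 61, 56, 89 and 165 counts in the same order. Every library of the SMARCB1 line was above every library of the GFP line, and within the SMARCB1 line both Dox libraries were above both DMSO libraries. The GFP Dox and GFP DMSO libraries overlapped.

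Between the lines under Dox, FSTL1 was 5.76-fold higher in SMARCB1 Dox than in GFP Dox. This was 2.53 on the log2 scale (SE, standard error, 0.31; adjusted p = 0.00012 in the quasi-likelihood test of edgeR, Benjamini-Hochberg adjusted over the 11097 genes tested). A gene is named as called here at an adjusted p below 0.05 and a fold change above 2. FSTL1 was the only one of the 5 tested members called in this comparison, where 6.08% of all genes tested were called, 3.1% as higher and 2.98% as lower. It was called in each of the 8 alternative settings and with any 1 library left out, with log2 fold changes of 2.39 to 2.67 in the latter. Without GFP Dox replicate 1, the library with the most reads of several alignments, the value was 2.67.

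The FSTL1 difference between the lines was also present without induction. In SMARCB1 DMSO it was 2.59-fold higher than in GFP DMSO, with a log2 fold change of 1.37 (SE 0.30, adjusted p = 0.0120, edgeR). This call was lost without GFP DMSO replicate 1 (log2 fold change 1.08, adjusted p = 0.258) and without SMARCB1 DMSO replicate 2 (1.24, adjusted p = 0.0978). FSTL1 and TGFB1 were the 2 members called here, 1 in each direction, and 4.97% of all genes tested were called, 2.49% as higher and 2.49% as lower. The 0 counts of SMARCB1 in SMARCB1 DMSO stand beside this difference, and the line and its transgene cannot be told apart.

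Dox in the SMARCB1 line gave FSTL1 a log2 fold change of 1.12 (SE 0.29), which is 2.17-fold. Its unadjusted p was 0.00181 and its adjusted p 0.386 by edgeR, so the difference was not called. No alternative setting called it, and the adjusted p ranged from 0.0999 to 0.499 over them. With any 1 library left out the log2 fold change stayed between 1.01 and 1.24. In the GFP line the log2 fold change of FSTL1 with Dox was -0.04 (SE 0.31, adjusted p = 1, edgeR). The Dox effect in the SMARCB1 line minus that in the GFP line was 1.16 on the log2 scale (SE 0.43, unadjusted p = 0.0167, adjusted p = 0.981, edgeR), and it was not called.

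FSTL3 encodes a secreted antagonist of activin and myostatin (GRCh38 chr19:676392-683392, + strand). It had 2.93 and 2.69 CPM in SMARCB1 Dox, 1.00 and 3.51 CPM in SMARCB1 DMSO, 4.47 and 1.92 CPM in GFP Dox, and 1.73 and 3.13 CPM in GFP DMSO. The counts were 35, 17, 6, 45, 27, 13, 21 and 45. All 4 groups overlapped, and the SMARCB1 Dox libraries lay between those of SMARCB1 DMSO.

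The log2 fold changes of FSTL3 were small beside their standard errors in all 5 comparisons. With Dox it was 0.25 (SE 0.70) in the SMARCB1 line and 0.38 (SE 0.69) in the GFP line, both with an adjusted p of 1 in edgeR's test, and the difference of these was -0.13 (SE 0.98). Between the lines it was -0.04 (SE 0.69) under DMSO and -0.17 (SE 0.71) under Dox. The value for Dox in the SMARCB1 line depended on single libraries. Without SMARCB1 DMSO replicate 1 it became -0.32, and without SMARCB1 DMSO replicate 2 it became 1.48, and neither was called. The exact 95% Poisson intervals of these DMSO libraries, 0.367 to 2.18 CPM and 2.56 to 4.69 CPM, do not overlap, so the replicates differed by more than counting error.

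FSTL3 also stood apart among the members in the GC content of its coding sequence. This was 70.9%, at the 98.3th percentile of 14324 genes whose median was 53.1%. TGFB1 came next at 62.6% (83.2th percentile), and the other members lay between 48.6% (TGFB2) and 58.5% (GREM1). The coding sequence of FSTL3 was short, at the 20.4th percentile of length, but not the shortest of the members. That of GREM1 was at the 9.7th percentile and that of FSTL1 at the 26.3th. GC content and this length are those of the longest coding sequence of each gene, not the merged one used for CPM per kb. As a description, the tested genes whose log2(CPM + 0.5) was most like that of FSTL3 over the 8 libraries were TTC9C (Pearson r = 0.976), MRPL9 (0.956) and ZC3H10 (0.952). These correlations share the libraries and their depth. They are the highest among all genes tested, over only 8 libraries, for a gene with 6 to 45 counts a library. Such a search finds high values by itself, so they were not taken as shared regulation.

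TGFB1, the most widely expressed TGF-beta ligand (GRCh38 chr19:41301587-41353922, − strand), was lowest in SMARCB1 DMSO. It had 15.9 and 20.6 CPM in SMARCB1 Dox, 10.8 and 5.69 CPM in SMARCB1 DMSO, 16.7 and 38.3 CPM in GFP Dox, and 19.6 and 31.5 CPM in GFP DMSO. The counts were 190, 130, 65, 73, 101, 259, 238 and 454. Both SMARCB1 DMSO libraries were below the other 6, and the remaining groups overlapped one another.

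TGFB1 was called lower in SMARCB1 DMSO than in GFP DMSO, 3.17-fold, with a log2 fold change of -1.67 (SE 0.43, adjusted p = 0.0359, edgeR). The call was lost without GFP DMSO replicate 2 (-1.27, adjusted p = 0.359), without SMARCB1 DMSO replicate 2 (-1.24, adjusted p = 0.338), when counts were scaled by library size only (adjusted p = 0.0625) and under a minimum of 10 counts in each library (adjusted p = 0.0629). Under Dox the log2 fold change between the lines was -0.60 (SE 0.41, adjusted p = 0.480, edgeR). It was 0.12 without GFP Dox replicate 2 and -1.08 without GFP Dox replicate 1. With Dox in the SMARCB1 line TGFB1 had a log2 fold change of 1.17 (SE 0.43, unadjusted p = 0.0170, adjusted p = 0.781, edgeR), which was not called. This value ranged from 0.74 to 1.67 with 1 library left out, both ends from leaving out a SMARCB1 DMSO library. In the GFP line the value was 0.11 (SE 0.41), and the difference of the Dox effects was 1.06 (SE 0.59, adjusted p = 0.981, edgeR).

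BMP4 (GRCh38 chr14:53949736-53958761, − strand) had the most footprints of the group. It had 300.4 and 326 CPM in SMARCB1 Dox, 327 and 300.0 CPM in SMARCB1 DMSO, 183 and 283 CPM in GFP Dox, and 242 and 235 CPM in GFP DMSO, from 1107 to 3852 counts a library. The SMARCB1 Dox and SMARCB1 DMSO libraries covered almost the same range, and all libraries of the SMARCB1 line were above all of the GFP line.

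The log2 fold change of BMP4 with Dox was -0.00 (SE 0.25) in the SMARCB1 line and -0.03 (SE 0.25) in the GFP line, with an adjusted p of 1 for both in edgeR's test. The difference of these was 0.03 (SE 0.35). The standard errors are the smallest among the 5 tested members. Between the lines BMP4 was 1.31-fold higher in SMARCB1 DMSO (log2 fold change 0.39, SE 0.25, adjusted p = 0.577, edgeR) and 1.34-fold higher in SMARCB1 Dox (0.43, SE 0.25, adjusted p = 0.391, edgeR). Neither was called. Without GFP Dox replicate 2 the value under Dox was 0.78 with an adjusted p of 0.0474 in edgeR's test, still under the fold threshold.

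TGFB3 (GRCh38 chr14:75958097-75983011, − strand), a TGF-beta ligand, had 2 to 19 counts a library. It had 0.335 and 1.11 CPM in SMARCB1 Dox, 2.50 and 0.701 CPM in SMARCB1 DMSO, 0.331 and 1.33 CPM in GFP Dox, and 1.07 and 1.32 CPM in GFP DMSO. The range of each group overlapped that of at least 1 other group. Its log2 fold changes ran from -1.16 (SE 1.01) with Dox in the SMARCB1 line to 0.33 (SE 0.92) between the lines under DMSO, and none was called.

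**Figure D2:**
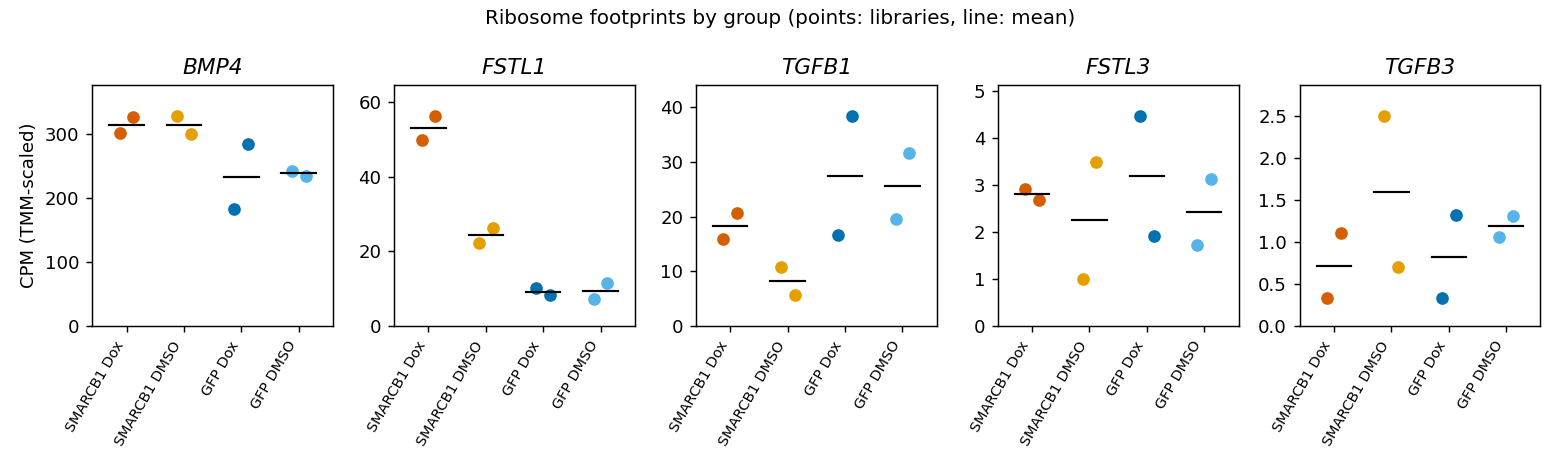
CPM of the 5 detected genes, with 1 point per library and a line at the mean of each group (n = 2). FSTL1 steps down from SMARCB1 Dox (52.9 CPM) to SMARCB1 DMSO (24.3 CPM) to the GFP groups (9.18 and 9.39 CPM), TGFB1 is lowest in SMARCB1 DMSO (8.26 CPM), and the FSTL3 groups overlap.

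Across the group, Dox called none of the 5 tested members in the SMARCB1 line, where 0.018% of all genes tested (2 of 11097) were called. An unadjusted p below 0.05 was found for 552 of all genes tested there, FSTL1 and TGFB1 among them. About as many pass this threshold when no gene differs, so the number alone does not show a response to Dox. The 240 and 443 given next are lower. DESeq2 called 34 genes with Dox in the SMARCB1 line, none of them a member. In the GFP line none of the 5 was called and 0% of all genes tested were, with 240 genes at an unadjusted p below 0.05 and 0 calls by DESeq2. The same held for the difference of the Dox effects, with 0% of all genes tested called, 443 at an unadjusted p below 0.05 and 1 call by DESeq2, which was not a member. The all-gene count with Dox in the SMARCB1 line was 22, with no member among them, whichever of the 2 GFP Dox libraries was left out. Between the lines it was 299 to 438 under DMSO with 1 DMSO library left out, and 348 and 379 under Dox without SMARCB1 Dox replicate 1 or 2. Without GFP Dox replicate 2, edgeR called 147 genes in the GFP line, 105 in the difference and 1372 between the lines under Dox, and of the members FSTL1 alone, in the last of these. The 5 comparisons use the same 8 libraries in different pairs, so their values are not independent of one another. With 2 libraries against 2, an exact permutation test of a single gene cannot go below p = 0.333, and none was run.

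**Figure D3:**
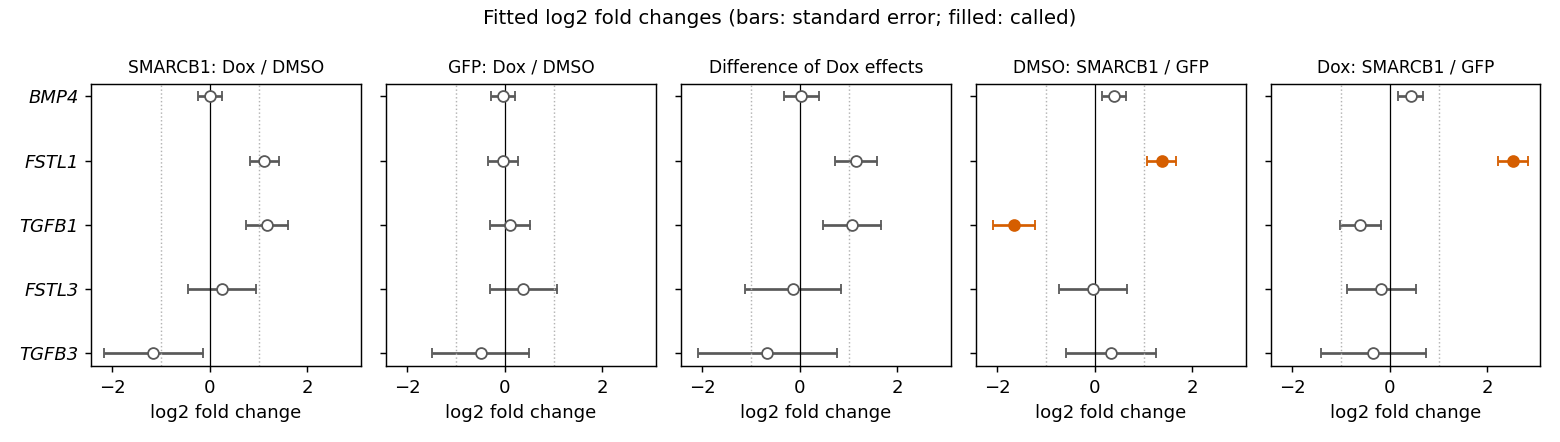
Fitted log2 fold changes of the 5 tested genes in the 5 comparisons, with bars of 1 standard error and dotted lines at a 2-fold change. Filled points are called. These are FSTL1 and TGFB1 between the lines under DMSO (1.37 and -1.67) and FSTL1 between the lines under Dox (2.53).

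A list of 93 other genes of the pathway was examined by role. Of these, 49 passed the expression filter and 23 had 0 counts in all libraries. Of 28 other ligands 12 had 0 counts and 7 were tested, among them BMP6, BMP7 and GDF15. INHBB, which encodes another activin subunit, had 0 counts, and INHA, the inhibin alpha subunit, had 1. Of 15 other antagonists 7 had 0 counts and 5 were tested. Of the other roles, 9 of 15 other receptors and 13 of 14 SMADs and their regulators were tested.

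The following genes of the list were named after their values were seen. The activin receptors ACVR1B, ACVR2A and ACVR2B had 1901, 376 and 1319 counts over the 8 libraries, and the BMP receptors BMPR1A and BMPR2 had 1049 and 3637. SMAD2, SMAD3, SMAD4 and SMAD5, which carry the signal to the nucleus, had between 4815 and 12970 counts. SMAD1 had 3 counts in all. Of its stretches of 28 bases 25.7% recur in the antisense gene SMAD1-AS1, which, as for TGFB3, is not a share of reads missed. Among genes known as targets of the pathway, CCN2 and ID1 had 8265 and 3662 counts, whereas TGFBI had 0 and FN1 had 8. The type I receptor of the TGF-betas, TGFBR1, had 1138 counts, against the 1 count of its partner TGFBR2.

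None of the 49 was called with Dox in the SMARCB1 line, in the GFP line or in the difference of these. In the SMARCB1 line the smallest p-value belonged to TGFBR1. It had 20.7 and 21.1 CPM in SMARCB1 Dox, 7.84 and 6.70 CPM in SMARCB1 DMSO, 16.4 and 11.8 CPM in GFP Dox, and 18.2 and 15.6 CPM in GFP DMSO. Both SMARCB1 DMSO libraries were below the other 6, as for TGFB1. TGFBR1 was picked by its p-value against SMARCB1 DMSO, which favours this order. How common the order is among all genes tested was not counted, so it was not taken as shared regulation. The log2 fold change of TGFBR1 with Dox was 1.53 (SE 0.32, adjusted p = 0.180, edgeR). It was called by DESeq2 (1.55, adjusted p = 0.0124), by edgeR without a filter on low counts (1.54, adjusted p = 0.0146), and in the reported fit without GFP Dox replicate 1 (adjusted p = 0.0494) or replicate 2 (adjusted p = 0.0430). The difference of its Dox effects was 1.79 (SE 0.45, adjusted p = 0.977, edgeR). BMP6, a BMP ligand, had the next smallest p-value at -1.43 (SE 0.38, adjusted p = 0.401, edgeR), with 4.98 ± 1.25 CPM in SMARCB1 Dox and 13.3 ± 1.44 CPM in SMARCB1 DMSO (SD, n = 2).

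In the GFP line the smallest p-values were those of TWSG1, a BMP-binding protein, at 1.10 (SE 0.41), and THBS1, an activator of latent TGF-beta, at 0.60 (SE 0.26), both with an adjusted p of 1 in edgeR's test. TWSG1 had 124 CPM in GFP Dox replicate 1 and 40.4 CPM in replicate 2, and without replicate 1 its log2 fold change was 0.07. Without GFP Dox replicate 2, TWSG1 (1.69, adjusted p = 0.0179) and SMAD2 (1.29, adjusted p = 0.0161) were called by edgeR. THBS1 had a difference of the Dox effects of -1.11 (SE 0.36, adjusted p = 0.981, edgeR).

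Between the lines some genes of the list were called. Under DMSO 4 of the 49 were called higher and 6 lower in the SMARCB1 line, which is 20.4% beside 4.97% of all genes tested. Under Dox 3 were called higher and 5 lower, 16.3% beside 6.08%. The list was chosen with earlier results of these data known, so these shares do not test whether the pathway differs. BMP7 and FSTL4, both called under DMSO, had 0 counts in the SMARCB1 line and passed the expression filter through the GFP line alone. The median log2 fold change of the 49 was -0.12 under DMSO, where that of all genes tested was 0.02, and -0.07 under Dox, where it was -0.01. By role, the calls under DMSO were 2 of 7 ligands tested, 3 of 9 receptors, 1 of 5 antagonists, 3 of 7 genes of latency and activation, 0 of 13 SMADs and regulators, and 1 of 8 targets. Under Dox they were 1, 2, 0, 3, 1 and 1 in the same order.

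BMP7, a BMP ligand, had 0 counts in all 4 libraries of the SMARCB1 line, and 137, 191, 309 and 417 counts in the GFP line (GFP Dox, then GFP DMSO). Against the 3 counts that 0 allows over a group, it was at least 171.6-fold higher in GFP DMSO than in SMARCB1 DMSO and at least 155.9-fold higher in GFP Dox than in SMARCB1 Dox. These bounds fall to 54.65-fold without SMARCB1 DMSO replicate 2 and to 53.86-fold without SMARCB1 Dox replicate 1, the deeper library of each pair. COL1A1, a collagen chain whose gene responds to TGF-beta, had 39.1 to 53.7 CPM in the SMARCB1 line and 1001 to 1480 CPM in the GFP line. Its log2 fold change was -4.72 under DMSO (adjusted p = 3e-07, edgeR) and -4.86 under Dox (adjusted p = 1.8e-07, edgeR). Neither gene overlapped between the lines.

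Genes listed under latency and activation went in both directions. The role is that of the list, and whether each of these proteins binds latent TGF-beta was not examined. LTBP2 had 38.5 to 61.0 CPM in the SMARCB1 line and 215 to 286 CPM in the GFP line, with log2 fold changes of -2.19 under DMSO and -2.58 under Dox. LTBP1 had 330 to 426 CPM in the SMARCB1 line and 146 to 180 CPM in the GFP line, with log2 fold changes of 1.09 and 1.25. THBS1 was higher in the SMARCB1 line by 2.28 under DMSO and 1.17 under Dox on the log2 scale. The adjusted p-values of these 3 genes in edgeR's test lay between 2.37e-05 and 0.0127.

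Of the receptors, TGFBR3, a co-receptor that presents TGF-beta, had 35.8 to 54.7 CPM in the SMARCB1 line and 5.91 to 8.68 CPM in the GFP line. Its log2 fold changes were 2.35 under DMSO (adjusted p = 8.5e-05, edgeR) and 3.02 under Dox (adjusted p = 1.36e-05, edgeR). BAMBI, a decoy receptor, was lower in the SMARCB1 line, with log2 fold changes of -1.33 (adjusted p = 0.0104, edgeR) and -2.20 (adjusted p = 0.000253, edgeR). The remaining calls, all named after their values were seen, were GDF15 (1.01), TGFBR1 (-1.22) and FSTL4 (at least 10.64-fold higher in GFP DMSO, or 3.387-fold without SMARCB1 DMSO replicate 2) under DMSO, and SMAD9 (-1.54) under Dox.

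BMP7, COL1A1, LTBP2 and TGFBR3 stayed called in both comparisons with any 1 library left out, as did THBS1 under DMSO and BAMBI under Dox. Under DMSO BAMBI lost its call without any 1 of the 4 DMSO libraries (log2 fold change -1.40 to -1.27, adjusted p up to 0.123). LTBP1 lost it there without SMARCB1 DMSO replicate 1 (adjusted p = 0.0534), GFP DMSO replicate 1 (0.167) or GFP DMSO replicate 2 (0.175). GDF15, TGFBR1 and FSTL4 were called with only 2 of the 8 libraries left out in turn, the GFP Dox ones, and their adjusted p-values otherwise reached 0.335, 0.315 and 0.307. Under Dox LTBP1 lost its call without SMARCB1 Dox replicate 2 (1.06, adjusted p = 0.0925). THBS1 lost it without SMARCB1 Dox replicate 2 (1.01, adjusted p = 0.160) and without GFP Dox replicate 2 (0.89, under 2-fold). Of the fits with 1 library left out, SMAD9 was called in that without GFP Dox replicate 2 alone, and its adjusted p otherwise reached 0.285. Settings ended some of these calls too. SMAD9 lost its call with library size only (adjusted p = 0.0788), under a minimum of 10 counts in each library (0.0507) and with only the groups compared (0.114). THBS1 under Dox lost it with only the groups compared (adjusted p = 0.0512), and TGFBR1 under DMSO with at least 10 counts in every library (0.0606). GDF15 lost it in 3 settings, with library size only (adjusted p = 0.103), with at least 10 counts in every library (0.0671) and without a filter (log2 fold change 0.9964, under 2-fold).

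**Figure D4:**
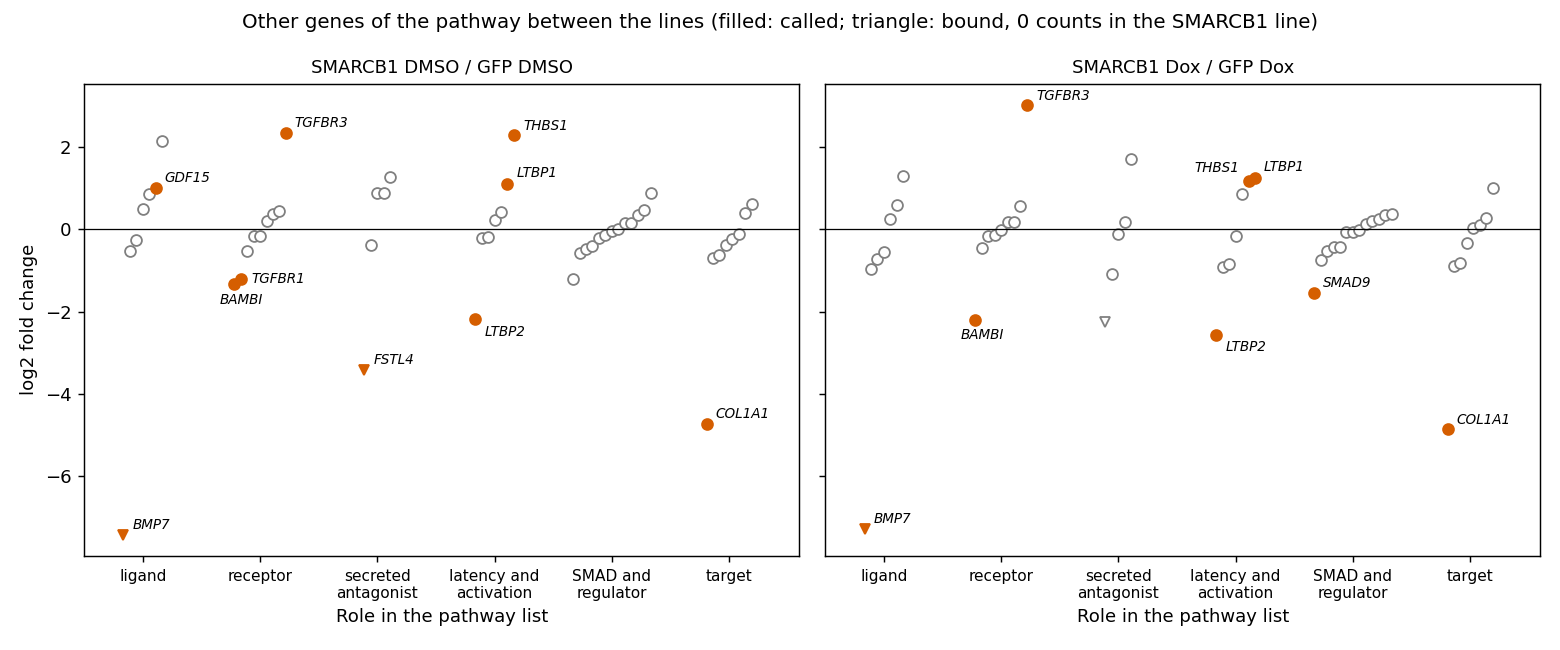
Log2 fold changes of the 49 tested genes of the pathway list between the lines, under DMSO (left) and Dox (right), by role. Filled points are called and labelled, and triangles are bounds for genes with 0 counts in the SMARCB1 line. COL1A1 and BMP7 lie far below 0 in both panels, and TGFBR3 lies above 2 in both.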

How the data were processed

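The deposited values are whole-number footprint counts per gene without normalization. The authors made them with STAR and HTSeq on hg38, counting in intersection-strict mode within GENCODE 42 coding sequences. Handling of duplicates and the strand option are not given in the sources used here. The rows of reads without a gene were left out. Of reads with a unique alignment, 52.8% to 61.8% lay on a coding sequence. Symbols, GRCh38 positions and sequences come from GENCODE 44 and the genome, matched by versionless gene ID (20426 of 20719).

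Counts were fitted with edgeR 4.0.16 in R 4.3.3 (filterByExpr by group, TMM, glmQLFit and glmQLFTest, 1 term per group over all 8 libraries, Benjamini-Hochberg adjustment over 11097 genes). Standard errors are the log2 fold change over the root of F. The study's methods name DESeq2, which was an alternative here (1.42.0). The others were RLE size factors, library size only, no filter beyond 1 count, a minimum of 10 counts in every library, a fit of the compared groups alone, a replicate block, a robust fit, and each library left out in turn. The fits were also run on simulated data with known changes, and the outcome is not given here. The share of true 2-fold changes missed with 2 libraries a group is thus not stated, and an uncalled gene is not shown to be unchanged. Replicates differed beyond sampling noise (chi-square per degree of freedom 14.5 to 45.5).

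The members and the pathway list were chosen with earlier results of these data known. Named were all 10 members, SMARCB1, up to 6 called pathway genes per comparison by smallest p (2 where none was called), and the 3 genes most correlated with FSTL3. The same was planned for FST, which had too few counts.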

Additional observations from a re-analysis of the deposited data

How the results depend on the processing

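FSTL1 under Dox between the lines kept its call in every alternative run. The number of called members moved only between the lines under DMSO, from 2 to 1 with library size only and to 1 with at least 10 counts in every library (TGFB1, adjusted p = 0.0625 and 0.0629), and to 0 to 2 with 1 library left out. Called pathway genes went from 0 to 1 with Dox in the SMARCB1 line by DESeq2 and without a filter (0 to 1 with 1 library left out), to 0 to 2 in the GFP line with 1 library left out, from 10 to 6 under DMSO with at least 10 counts in every library (5 to 11 with 1 library left out), and from 8 to 5 to 11 under Dox with 1 library left out. The fold change of BMP4 with Dox in the SMARCB1 line, near 0, changed sign to 0.0105 with RLE, 0.10 with library size only, 0.0105 with DESeq2, 0.0047 without a filter, 0.0092 with at least 10 counts and 0.017 with only the groups compared. That of FSTL3 in the difference of the Dox effects became 0.14 with library size only, where the median of all genes moved from -0.03 to 0.16. With 1 library left out, uncalled values crossed 0 with Dox in the SMARCB1 line for BMP4 (-0.0599 to 0.0596) and FSTL3 (-0.32 to 1.48). In the GFP line they did so for BMP4 (-0.39 to 0.25), FSTL1 (-0.32 to 0.32), FSTL3 (-0.34 to 0.87), TGFB1 (-0.62 to 0.58) and TGFB3 (-1.82 to 0.15). In the difference they did so for BMP4 (-0.25 to 0.39), FSTL3 (-0.69 to 1.10) and TGFB3 (-1.64 to 0.66). Between the lines they did so for FSTL3 (-1.27 to 0.52) and TGFB3 (-0.76 to 1.05) under DMSO, and for FSTL3 (-0.66 to 0.55), TGFB1 (-1.08 to 0.12) and TGFB3 (-1.30 to 0.97) under Dox. The causes were not tested, and a lone library was assumed to vary like the other groups. Over all genes, calls with Dox in the SMARCB1 line went from 2 to 34 with DESeq2, 46 without a filter, 13 with the block, 5 with only the groups compared and 1 with at least 10 counts. Without a filter they went from 0 to 14 in the GFP line and 15 in the difference. With at least 10 counts they fell from 552 to 288 under DMSO and from 675 to 377 under Dox. Same-numbered libraries deviated together only in part (correlations of 0.05 to 0.28 over 6 group pairs), so the numbers were not taken as pairs. With the replicate block, 0, 0 and 0 members were called with Dox and 2 and 1 between the lines, as without it. The counts of pathway genes were 11 under DMSO and 10 under Dox. Ratios of counts for the 5 members below the filter were not given, since none had more than 3 counts in a group. At their depth, only limits can be stated.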
